A study of Homo sapiens with 36 samples.

Results

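The 41 genes described here act in G2, mitosis and at the kinetochore. They were chosen by gene name from the 60662 gene rows of an RNA-sequencing count table of A549 cells, and all 41 passed the filter on low counts in every fit. A549 is a human lung adenocarcinoma line. Its cells were transfected with 100 nM of a non-targeting siRNA (siControl) or of siRNA against ATF4 or ATF6, transcription factors of the integrated stress response and of the unfolded protein response. They were then kept for 6 or 16 h in medium with 25 mM glucose or with none (0 mM). All 12 groups carried a transfection and the same pyruvate-free medium with 10% dialysed serum and 2 mM L-glutamine. Each group had 3 biological replicates, which makes 36 poly(A) libraries. The replicates are cultures of 1 cell line, so p-values measure the spread between cultures. In RNA from whole cultures, fewer cells in mitosis and less mRNA per cell cannot be told apart.

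Progress from G2 into mitosis is driven by cyclin A and cyclin B bound to CDK1. Separate sets of proteins then attach chromosomes to the spindle, hold anaphase until all are attached, and divide the cell. Most genes of this programme are transcribed as cells pass through S phase and G2. Complexes that bind CHR elements (TTTGAA or a variant of it near the start site) and the factor NF-Y at CCAAT boxes keep them silent in resting cells or turn them on in G2, FOXM1 and MYBL2 among the activators. Transcript levels of these genes are therefore widely used as a readout of proliferation.

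RefSeq promoter windows on the GRCh38.p14 build, from 250 bases before to 50 bases after a listed start, were matched to 35 of the 41 genes. The other 6 were FOXM1, AURKA, TTK, UBE2C, BIRC5 and TPX2. TTTGAA on either strand was found in 25 of the 35 (71.4%), against 18.2% of 27305 genes with such a window. Either that motif or its variant with the letters TTTAAA was found in 32 of the 35 (91.4%), against 27.9% of 27305 genes. CCAAT on either strand was in 29 of the 35 (82.9%), against 39.7% of 27305 genes. Both a CCAAT and 1 of the 2 other motifs were in 25 of the 35 (71.4%), against 11.2% of 27305 genes. A match is a run of letters and not a shown binding site. The stretches below run from 110 bases before to 10 bases after the listed start, 5′ to 3′ on the strand of the gene, with matches to these 3 motifs on either strand in capitals. A CCAAT on the other strand reads ATTGG, and the variant TTTAAA reads the same on both strands. SPC25 and MKI67 are shown for large falls without glucose, and CDCA8 as a further gene that fell. PLK1 and CDC20 are shown for their difference between siATF4 and siControl. CENPA and KIF2C are genes whose change did not pass in at least 1 siRNA group. CCNA2, KIF20A, NCAPH, KIF11 and AURKB, among others, fell more than CDCA8 in siControl and are not shown. Of these, CCNA2 and AURKB have neither TTTGAA nor TTTAAA in a window, and KIF20A and NCAPH have TTTAAA but not TTTGAA. In MKI67 and CDCA8 1 pair of matches overlaps.
SPC25, chr2:168890421-168890540, minus strand: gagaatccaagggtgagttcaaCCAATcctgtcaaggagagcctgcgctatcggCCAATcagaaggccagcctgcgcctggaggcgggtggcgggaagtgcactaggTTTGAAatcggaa
MKI67, chr10:128126414-128126533, minus strand: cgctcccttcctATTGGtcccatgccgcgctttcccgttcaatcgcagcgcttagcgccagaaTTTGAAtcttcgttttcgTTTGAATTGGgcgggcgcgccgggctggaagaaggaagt
CDCA8, chr1:37692406-37692525, plus strand: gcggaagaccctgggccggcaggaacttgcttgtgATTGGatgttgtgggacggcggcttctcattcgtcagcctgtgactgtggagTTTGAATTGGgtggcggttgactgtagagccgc
PLK1, chr16:23678779-23678898, plus strand: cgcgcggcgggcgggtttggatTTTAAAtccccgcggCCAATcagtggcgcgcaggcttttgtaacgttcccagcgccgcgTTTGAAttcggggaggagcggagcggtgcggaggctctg
CDC20, chr1:43358871-43358990, plus strand: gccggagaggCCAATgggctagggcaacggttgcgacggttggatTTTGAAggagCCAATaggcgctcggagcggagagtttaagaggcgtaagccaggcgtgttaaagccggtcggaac
CENPA, chr2:26785946-26786065, plus strand: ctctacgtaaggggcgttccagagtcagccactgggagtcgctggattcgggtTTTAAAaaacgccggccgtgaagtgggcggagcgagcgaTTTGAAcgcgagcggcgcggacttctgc
KIF2C, chr1:44739727-44739846, plus strand: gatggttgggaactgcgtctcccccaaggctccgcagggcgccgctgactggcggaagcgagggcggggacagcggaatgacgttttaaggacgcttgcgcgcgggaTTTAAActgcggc
All these windows but that of KIF2C hold TTTGAA within the printed stretch. In KIF2C the letters TTTAAA run across the listed start. CENPA and KIF2C have no CCAAT within the printed stretch, while the other 5 have at least 1 on either strand. CENPA does have CCAAT further upstream in its full window, and KIF2C has none there. BUB1B, ANLN, NDC80 and NUF2 have no CCAAT in a window either, yet were lower without glucose at 16 h in siControl. CENPE also has none, and its change did not pass there. Whether a CCAAT goes with the size of the fall was not tested.

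Totals ran from 39.4 to 78.7 M expected counts in 35 libraries. Replicate 3 of siATF4 without glucose at 6 h had 2.87 M counts and was left out, so that group has n = 2. ATF6 mRNA was 91.0 ± 0.816 CPM (counts divided by the TMM-scaled library size in M counts; SD, n = 3) in siControl without glucose at 16 h and 15.4 ± 4.99 CPM with siATF6. It was lower with siATF6 in both media, by -2.36 and -2.58 on the log2 scale (edgeR adjusted p = 1.79e-05 and 4.85e-06). ATF4 mRNA was 460.1 ± 36.3 CPM in siControl without glucose and 190.2 ± 33.2 CPM with siATF4 (-1.29, adjusted p = 0.000186). In 25 mM glucose at 16 h the difference in ATF4 was -0.28 (adjusted p = 0.759), and the reduction labelled for siATF4 did not pass there. At 6 h ATF6 was lower with siATF6 by -2.30 and -2.17 in the 2 media (adjusted p = 0.00751 and 0.00921), and the ATF4 differences of -1.15 and -1.11 with siATF4 did not pass (adjusted p = 0.794 and 0.781). All 11 epithelial and A549 markers had a median above 1 CPM, CDKN2A, deleted in A549, was at 0 in all 35 libraries, and 0 of 5 endothelial, 1 of 6 leukocyte (CD14) and 2 of 7 fibroblast markers had a median above 1 CPM. Of 6 alveolar type 2 markers only ABCA3 did. Both pairs of replicate 2 at 6 h with siControl and with siATF6, and replicate 3 of siATF4 in 0 mM glucose at 16 h, stood apart, and results that turn on them are given with and without them.

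Per kilobase of effective length, the highest levels in siControl cells with glucose at 16 h were those of CCNB1, which encodes cyclin B1, at 158 ± 16.2 CPM per kb (SD, n = 3). UBE2C, the ubiquitin-conjugating enzyme of the anaphase-promoting complex, was at 155 ± 16.5 CPM per kb, the CDK1-activating phosphatase CDC25B at 153 ± 3.49 and securin (PTTG1) at 143 ± 26.0. These 4 levels lay within 1 SD of a neighbour. TOP2A, the topoisomerase that untangles sister chromatids, followed at 124 ± 8.38 CPM per kb. The lowest levels were those of CENPE, a kinetochore motor, at 4.95 ± 0.427 CPM per kb, NDC80, a microtubule-binding kinetochore protein, at 7.03 ± 0.233, and CDC25C at 8.40 ± 0.437. All 41 genes together held 4923 ± 244 CPM in siControl cells with glucose at 16 h.

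After 16 h without glucose, 39 of the 41 genes were lower in siControl cells and none was higher (edgeR's quasi-likelihood test, Benjamini-Hochberg adjusted p under 0.05). Of all 18013 genes tested, 14.5% were called lower and 14.6% higher. Changes here are log2 fold changes of counts, with 0 mM over 25 mM. The median log2 fold change of the 41 was -1.18, with a range from -1.99 to -0.48, and that of all genes tested was 0.01. The sum over the 41 genes fell from 4923 ± 244 to 2189 ± 522 CPM (SD, n = 3). In 40 genes every library without glucose lay below every library with glucose, CENPA being the exception, while this held for 26.2% of all genes tested. CENPA (-0.48, adjusted p = 0.228 in edgeR) and CENPE (-0.69, adjusted p = 0.0634) did not pass. With the replicate number as a block, which pairs these libraries, edgeR called all 41 (CENPA adjusted p = 0.0208, CENPE adjusted p = 0.0278). The share of all genes called with the block was not computed.

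**Figure D1:**
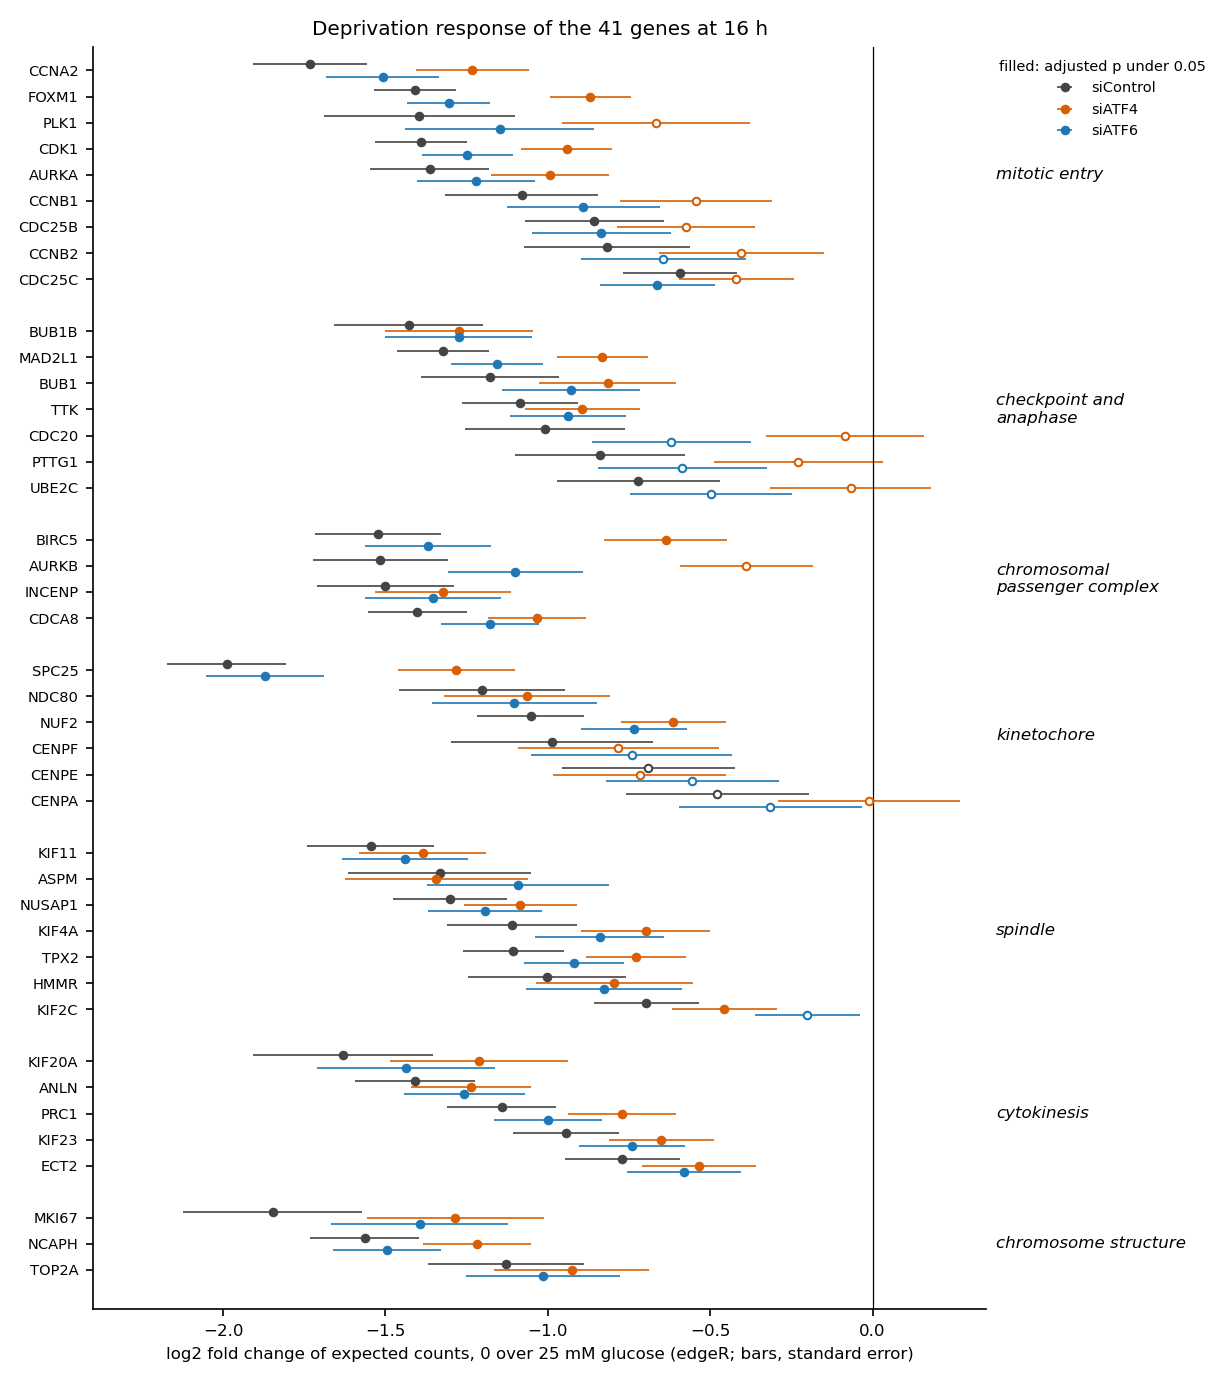
Log2 fold change of expected counts between 0 and 25 mM glucose at 16 h (horizontal axis) for each of the 41 genes, by role, in siControl, siATF4 and siATF6 cells; bars are standard errors and filled points have an edgeR adjusted p under 0.05. All 123 points lie below 0, and the siATF4 points of UBE2C, CDC20 and CENPA are the nearest to it.

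All 9 genes of mitotic entry were lower in siControl cells, with a median log2 fold change of -1.36. CCNA2 (chr4:121816444-121823933, minus strand), which encodes the cyclin of S phase and G2, fell the most of them. The siControl libraries held 81.9, 82.2 and 76.2 CPM of CCNA2 with glucose (replicates 1, 2 and 3) and 18.7, 29.1 and 24.6 CPM without. With siATF4 CCNA2 went from 79.1, 74.4 and 72.6 to 29.6, 38.9 and 29.0 CPM, and with siATF6 from 79.9, 79.6 and 79.5 to 21.2, 33.8 and 30.4 CPM. The libraries with and without glucose did not overlap with any siRNA. Its log2 fold changes were -1.73 ± 0.18 (SE) in siControl, -1.23 ± 0.17 with siATF4 and -1.51 ± 0.17 with siATF6. CDK1 (chr10:60778331-60794852, plus strand), the kinase that starts mitosis, was lower, at -1.39 (adjusted p = 2.59e-06) in siControl. In siControl replicates 1, 2 and 3 the level of CDK1 was 110.3, 110.3 and 106 CPM in 25 mM glucose and 35.5, 50.5 and 38.7 CPM in 0 mM. For siATF4 they were 113, 109 and 103 CPM with and 52.4, 60.7 and 58.3 CPM without glucose, and for siATF6 118, 106 and 107 and 37.3, 50.4 and 54.0 CPM. Again no library without glucose reached any library with glucose.

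CCNB1 (chr5:69167135-69178245, plus strand) encodes the cyclin partner of CDK1 in mitosis. CCNB1 stood at 171, 210.4 and 189 CPM in siControl replicates 1, 2 and 3 with glucose and at 58.3, 113 and 98.9 CPM without. The same pairs of values were 177, 225 and 193 and then 112, 147 and 154 CPM with siATF4, and 212, 222 and 221 and then 76.9, 139 and 144 CPM with siATF6. CCNB1 changed by -1.08 (adjusted p = 0.00262) in siControl and -0.89 (adjusted p = 0.00801) with siATF6 in edgeR. With siATF4 the change of -0.54 (adjusted p = 0.0932) did not pass, although the groups did not overlap. FOXM1 (chr12:2857681-2877155, minus strand) is a transcription factor that turns on many genes of this programme in G2. The siControl libraries held 148, 156 and 146 CPM of FOXM1 with glucose (replicates 1, 2 and 3) and 47.9, 63.4 and 58.4 CPM without. With siATF4 FOXM1 went from 164, 167 and 163 to 75.7, 102 and 96.1 CPM, and with siATF6 from 179.6, 166 and 171 to 61.4, 73.8 and 77.9 CPM. FOXM1 fell in all 3, by -1.41 ± 0.13, -0.87 ± 0.13 and -1.31 ± 0.13 (adjusted p = 7.87e-07, 0.000117 and 1.33e-06 in edgeR). Of its annotated exon bases 15.9% overlap ITFG2 on the other strand, and the reads carry no strand.

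CDC25C (chr5:138285265-138338355, minus strand), a phosphatase that activates CDK1, had the smallest fall of the group. In siControl replicates 1, 2 and 3 the level of CDC25C was 12.6, 13.8 and 12.8 CPM in 25 mM glucose and 6.26, 11.1 and 8.67 CPM in 0 mM. For siATF4 they were 11.7, 14.4 and 12.3 CPM with and 8.36, 9.14 and 11.6 CPM without glucose, and for siATF6 12.9, 13.2 and 12.8 and 7.37, 8.91 and 8.73 CPM. CDC25C changed by -0.59 (adjusted p = 0.0188) in siControl, -0.42 (adjusted p = 0.0863) with siATF4 and -0.66 (adjusted p = 0.00854) with siATF6, and the value with siATF4 did not pass in edgeR. It passed without siATF4, 0 mM, replicate 3 (-0.57, adjusted p = 0.0307). The mitotic kinases PLK1 (-1.40) and AURKA (-1.36), CDC25B (-0.86) and the other mitotic cyclin B gene CCNB2 (-0.82) were lower in siControl too.

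All 7 genes of the spindle checkpoint and of anaphase were lower in siControl cells, with a median of -1.09. BUB1B (chr15:40161023-40221136, plus strand), which encodes the checkpoint protein BUBR1, fell most. BUB1B stood at 61.0, 65.2 and 63.3 CPM in siControl replicates 1, 2 and 3 with glucose and at 16.0, 28.6 and 26.0 CPM without. The same pairs of values were 63.1, 57.8 and 62.0 and then 23.7, 34.0 and 18.8 CPM with siATF4, and 64.4, 71.8 and 70.3 and then 20.6, 34.1 and 32.2 CPM with siATF6. BUB1B changed by -1.43, -1.27 and -1.27 in siControl, siATF4 and siATF6 cells, and the libraries with and without glucose did not overlap in any of them. The readthrough gene BUB1B-PAK6 shares 10.2% of the exon bases of BUB1B. UBE2C (chr20:45812576-45816957, plus strand) fell least. The siControl libraries held 67.1, 82.7 and 73.0 CPM of UBE2C with glucose (replicates 1, 2 and 3) and 35.4, 54.1 and 45.9 CPM without. With siATF4 UBE2C went from 77.0, 115 and 93.0 to 60.0, 81.0 and 133 CPM, and with siATF6 from 81.4, 79.2 and 81.7 to 42.6, 65.9 and 66.1 CPM. UBE2C changed by -0.72 (adjusted p = 0.0403) in siControl, whereas -0.07 (adjusted p = 0.866) with siATF4, where the groups overlap, and -0.50 (adjusted p = 0.139) with siATF6 did not pass in edgeR. Without siATF4, 0 mM, replicate 3, its highest siATF4 library, the change of UBE2C with siATF4 was -0.45 (adjusted p = 0.144). The checkpoint kinases BUB1 (-1.18) and TTK (-1.09), the checkpoint protein MAD2L1 (-1.32), CDC20 (-1.01), which activates the anaphase-promoting complex, and securin PTTG1 (-0.84) lay between them in siControl.

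The chromosomal passenger complex corrects faulty attachments of chromosomes and guides cytokinesis. All 4 of its genes fell in siControl cells by like amounts, from -1.52 to -1.40. BIRC5 (chr17:78214186-78225636, plus strand) encodes survivin, which brings the complex to the centromere. In siControl replicates 1, 2 and 3 the level of BIRC5 was 160.2, 173 and 153 CPM in 25 mM glucose and 47.0, 67.1 and 55.5 CPM in 0 mM. For siATF4 they were 154, 176 and 149.7 CPM with and 81.3, 92.6 and 138 CPM without glucose, and for siATF6 182, 156 and 155 and 49.7, 75.3 and 69.5 CPM. BIRC5 changed by -1.52 ± 0.19, -0.64 ± 0.19 and -1.37 ± 0.19 in the 3 siRNA groups (adjusted p = 2.47e-05, 0.0198 and 5.18e-05 in edgeR). CDCA8 (chr1:37692481-37709719, plus strand), the borealin subunit, fell least in siControl. CDCA8 stood at 49.2, 50.1 and 48.2 CPM in siControl replicates 1, 2 and 3 with glucose and at 14.6, 21.8 and 19.5 CPM without. The same pairs of values were 47.6, 52.7 and 50.2 and then 22.4, 26.4 and 25.6 CPM with siATF4, and 51.7, 48.1 and 49.0 and then 17.1, 24.9 and 24.9 CPM with siATF6. CDCA8 changed by -1.40, -1.03 and -1.18, with no overlap in any group. AURKB, the kinase of the complex, changed by -1.52 in siControl and -1.10 with siATF6, while its change of -0.39 (adjusted p = 0.166) with siATF4 did not pass in edgeR. Without siATF4, 0 mM, replicate 3, AURKB passed with siATF4 too (-0.68, adjusted p = 0.00930 in edgeR). INCENP, the scaffold of the complex, changed by -1.50, -1.32 and -1.35. Without siATF4, 0 mM, replicate 3, INCENP was at -1.07 and BIRC5 at -0.90 with siATF4, and both passed in edgeR.

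The 6 kinetochore genes held both the largest and the smallest changes of all 41. SPC25 (chr2:168834132-168913371, minus strand), a subunit of the NDC80 complex that binds microtubules, fell most. The siControl libraries held 15.4, 14.9 and 13.0 CPM of SPC25 with glucose (replicates 1, 2 and 3) and 3.49, 4.72 and 2.70 CPM without. With siATF4 SPC25 went from 11.9, 13.4 and 10.5 to 4.22, 4.78 and 5.94 CPM, and with siATF6 from 14.8, 13.3 and 13.3 to 3.78, 3.78 and 3.97 CPM. SPC25 changed by -1.99 ± 0.18, -1.28 ± 0.18 and -1.87 ± 0.18 (adjusted p = 9.47e-07, 9.11e-05 and 1.38e-06 in edgeR), with no overlap in any siRNA group. NDC80 and NUF2, also subunits of that complex, changed by -1.20 and -1.05 in siControl. CENPA (chr2:26764289-26801067, plus strand), the histone variant that marks centromeres, passed with no siRNA in edgeR without a replicate block. With the block, CENPA and CENPE passed in siControl, as given above. In siControl replicates 1, 2 and 3 the level of CENPA was 28.8, 35.1 and 31.3 CPM in 25 mM glucose and 13.8, 30.7 and 24.0 CPM in 0 mM. For siATF4 they were 25.8, 42.4 and 36.9 CPM with and 24.5, 37.6 and 43.2 CPM without glucose, and for siATF6 26.9, 29.5 and 29.5 and 15.4, 27.0 and 27.7 CPM. Its libraries with and without glucose overlapped in all 3 siRNA groups. The log2 fold change with siATF4 was -0.01, and -0.19 without siATF4, 0 mM, replicate 3. CENPE changed by -0.69, -0.72 and -0.56 and passed in none without the block. CENPF, a large outer kinetochore protein, changed by -0.99 (adjusted p = 0.0253) in siControl, and the values of -0.78 with siATF4 and -0.74 with siATF6 did not pass. Without siATF4, 0 mM, replicate 3, CENPE was at -0.48 and CENPF at -0.55 with siATF4, and neither passed in edgeR.

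**Figure D2:**
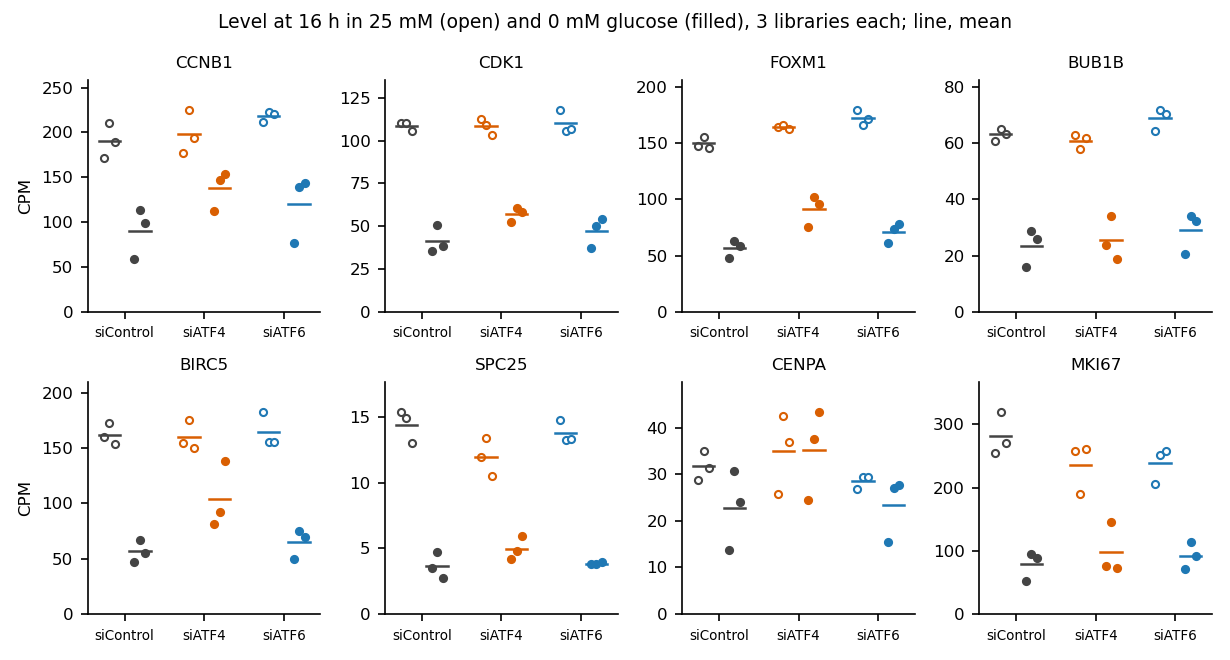
CPM at 16 h (vertical axis, from 0) of 8 of the genes in 25 mM (open) and 0 mM glucose (filled) in siControl, siATF4 and siATF6 cells, with 3 libraries and their mean (line) per group. The points with and without glucose are apart in every siRNA group for the genes shown other than CENPA, whose groups overlap.

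All 7 spindle genes were lower in siControl cells, with a median of -1.11. KIF11 (chr10:92593130-92655395, plus strand), the motor that pushes the spindle poles apart, fell most. KIF11 stood at 116, 123 and 123 CPM in siControl replicates 1, 2 and 3 with glucose and at 30.8, 49.8 and 43.5 CPM without. The same pairs of values were 124, 94.4 and 110.5 and then 38.8, 55.1 and 33.4 CPM with siATF4, and 109, 125 and 125 and then 36.7, 48.0 and 50.0 CPM with siATF6. KIF11 changed by -1.54, -1.39 and -1.44 in siControl, siATF4 and siATF6 cells. KIF2C (chr1:44739818-44767767, plus strand), a kinesin that takes microtubule ends apart, fell least. The siControl libraries held 51.4, 62.5 and 60.6 CPM of KIF2C with glucose (replicates 1, 2 and 3) and 29.1, 43.3 and 35.6 CPM without. With siATF4 KIF2C went from 51.3, 60.2 and 58.4 to 38.9, 43.7 and 42.7 CPM, and with siATF6 from 60.3, 65.1 and 64.7 to 41.3, 62.9 and 64.1 CPM. KIF2C changed by -0.70 (adjusted p = 0.00411) in siControl and -0.46 (adjusted p = 0.0446) with siATF4 in edgeR, and the latter did not pass without siATF4, 0 mM, replicate 3 (-0.48, adjusted p = 0.0631). With siATF6 its change was -0.20 (adjusted p = 0.370) and its groups overlapped. The spindle assembly factors TPX2 (-1.11), NUSAP1 (-1.30), ASPM (-1.33) and HMMR and the chromokinesin KIF4A (-1.11) were lower in siControl and passed with both other siRNAs. HMMR was at 45.1, 46.5 and 42.7 CPM in siControl replicates 1, 2 and 3 with glucose and at 14.2, 29.7 and 23.2 CPM without. In GENCODE 29 NUSAP1 has another span than the deposited one and shares 62.2% of its exon bases with AC087721.2 on the same strand. Counts between the pair are therefore uncertain.

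Cytokinesis genes passed in all 3 siRNA groups, 5 of 5 each. KIF20A (chr5:138178719-138187723, plus strand), a kinesin of the central spindle, fell most in siControl. In siControl replicates 1, 2 and 3 the level of KIF20A was 55.4, 72.7 and 65.7 CPM in 25 mM glucose and 11.7, 28.7 and 22.2 CPM in 0 mM. For siATF4 they were 57.4, 61.8 and 63.0 CPM with and 23.3, 32.4 and 23.9 CPM without glucose, and for siATF6 58.3, 65.8 and 69.1 and 15.1, 28.9 and 28.6 CPM. KIF20A changed by -1.63, -1.21 and -1.44. ECT2 (chr3:172750682-172821474, plus strand), which activates RhoA at the cleavage furrow, fell least. ECT2 stood at 210.1, 221 and 219 CPM in siControl replicates 1, 2 and 3 with glucose and at 108, 148 and 126 CPM without. The same pairs of values were 224, 182 and 216 and then 153, 180.4 and 101 CPM with siATF4, and 200.3, 238 and 238 and then 132, 158 and 170.4 CPM with siATF6. ECT2 changed by -0.77, -0.54 and -0.58, and neither gene's groups overlapped. Without siATF4, 0 mM, replicate 3, the change of ECT2 with siATF4 did not pass (-0.33, adjusted p = 0.102 in edgeR). The midzone kinesin KIF23 (-0.95), the microtubule bundler PRC1 (-1.14) and the furrow scaffold ANLN (-1.41) were lower in siControl as well. For PRC1 58.4% of exon bases overlap AC068831.7 or PRC1-AS1, and in all 16 of the 41 genes have exons that overlap another gene in GENCODE 29.

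All 3 genes of chromosome structure passed in each siRNA group. MKI67 (chr10:128096659-128126423, minus strand) encodes Ki-67, which coats mitotic chromosomes and is the usual marker of proliferating cells. The siControl libraries held 255, 319 and 271 CPM of MKI67 with glucose (replicates 1, 2 and 3) and 52.7, 94.7 and 87.8 CPM without. With siATF4 MKI67 went from 257, 189 and 261 to 76.0, 146 and 71.9 CPM, and with siATF6 from 206, 251 and 258 to 70.8, 114 and 91.6 CPM. MKI67 changed by -1.85 ± 0.28, -1.28 ± 0.27 and -1.39 ± 0.27 (adjusted p = 0.000108, 0.00237 and 0.000908 in edgeR). TOP2A (chr17:40388525-40417896, minus strand) fell least. In siControl replicates 1, 2 and 3 the level of TOP2A was 621, 587 and 543 CPM in 25 mM glucose and 186, 346 and 270.4 CPM in 0 mM. For siATF4 they were 709.6, 495 and 600.5 CPM with and 304, 438 and 220.4 CPM without glucose, and for siATF6 577, 555 and 576 and 226, 317 and 319 CPM. TOP2A changed by -1.13, -0.93 and -1.01, and the groups of both genes were apart. NCAPH, a condensin subunit, changed by -1.56, -1.22 and -1.50.

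With siATF4, 29 of the 41 genes were lower after 16 h without glucose and none higher, and with siATF6 33 were lower and none higher, where edgeR called 14.2% and 17.9% of all genes lower. The median log2 fold change was -0.80 with siATF4 and -1.01 with siATF6, against -0.01 and -0.03 over all genes tested. The sum of the 41 went from 4972 ± 72.1 to 2987 ± 454 CPM with siATF4 and from 5055 ± 123 to 2609 ± 553 CPM with siATF6 (SD, n = 3). The 12 genes that did not pass with siATF4 were CCNB1, CCNB2, CDC25B, CDC25C, PLK1, CDC20, UBE2C, PTTG1, AURKB, CENPA, CENPE and CENPF. The 8 that did not pass with siATF6 were CCNB2, CDC20, UBE2C, PTTG1, CENPA, CENPE, CENPF and KIF2C. Libraries with and without glucose did not overlap in 32 genes with siATF4 and in 39 with siATF6, against 16.8% and 27.6% of all genes in that direction. Without siATF4, 0 mM, replicate 3, edgeR called 30 with siATF4 (and 13.9% of all genes lower), gaining CDC25B, CDC25C and AURKB and losing KIF2C and ECT2. CDC25B then stood at -0.79 in place of -0.57. CCNB2 (-0.62 in place of -0.40), CDC20 (-0.39 in place of -0.09) and PTTG1 (-0.61 in place of -0.23) did not pass in either fit. With all 36 libraries in 1 fit, the one of 2.87 M counts included, edgeR called 4, 1 and 3 of the 41 lower in siControl, siATF4 and siATF6. The share of all genes called in that fit was not computed.

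Of 65 other mitosis genes, 59, 51 and 55 were lower at 16 h in siControl, siATF4 and siATF6 cells, with medians of -1.14, -0.91 and -1.02. In siControl the smallest p-values among them were those of MELK (-1.55), a mitotic kinase, NCAPD3 (-1.64), a condensin subunit, CDCA5 (-1.66), the cohesin protector sororin, and SKA3 (-2.01), a kinetochore protein. Among them MIS12, a kinetochore assembly protein, rose in every siRNA group, by 0.99, 0.99 and 0.83. Of 25 genes of G1 and S phase, 20, 21 and 21 were lower, with medians of -1.75, -1.30 and -1.85, and CDK4 rose with siATF4 (0.41). Their falls were led in siControl by the helicase subunits MCM3 (-1.95), MCM6 (-2.35) and MCM7 (-2.03) and by RRM2 (-2.04), a subunit of ribonucleotide reductase. Of 24 regulators of the programme, 8 were lower and 5 higher in siControl cells. The activators E2F2 (-3.19) and MYBL2 (-2.06), the E2F partner TFDP1 (-1.09) and the CDK inhibitor CDKN2C (-1.98) had the smallest p-values among those that fell. Among those that rose were the growth arrest gene GADD45A (2.02), the CDK inhibitors CDKN1A (1.12) and CDKN1B (0.51), and LIN37 (0.64), a subunit of the DREAM complex. GADD45A, CDKN1B and LIN37 also rose with siATF4 and with siATF6. CDKN1A rose with siATF6 (1.19), and its change of 0.46 with siATF4 did not pass. These lists are described by counts and medians, beside the counts over all genes given above, and were not tested as sets.

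With glucose at 16 h, neither knockdown changed any of the 41 genes past the threshold in edgeR or DESeq2, and 0 had an unadjusted p under 0.05 in edgeR in either, against 6.93% of all genes with siATF4 and 10.9% with siATF6. Over all genes, edgeR called 0.0444% with siATF4 (0.0222% higher and 0.0222% lower) and 0.749% with siATF6 (0.189% higher and 0.561% lower). The log2 differences from siControl ran from -0.27 to 0.45 with siATF4 and from -0.23 to 0.38 with siATF6. The sums over the 41 were 4923 ± 244 CPM in siControl, 4972 ± 72.1 with siATF4 and 5055 ± 123 with siATF6 (SD, n = 3).

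Without glucose at 16 h, 8 of the 41 genes were higher with siATF4 than with siControl and none was lower, where edgeR called 7.32% of all genes higher and 5.09% lower. They were CDC20 (1.32, adjusted p = 0.00527 on the log2 scale), PLK1 (1.18, adjusted p = 0.0199), AURKB (1.17, adjusted p = 0.00361), UBE2C (1.01, adjusted p = 0.0206), BIRC5 (0.87, adjusted p = 0.0116), FOXM1 (0.68, adjusted p = 0.00497), CDK1 (0.45, adjusted p = 0.0483) and MAD2L1 (0.45, adjusted p = 0.0491). The median difference over the 41 was 0.34 and that over all genes tested -0.02. CDC20 was at 52.1, 84.3 and 70.4 CPM in siControl replicates 1, 2 and 3 without glucose and at 121, 161 and 238 CPM with siATF4. AURKB was at 22.6, 34.6 and 28.3 CPM and 52.2, 53.7 and 88.6 CPM. PLK1 was at 38.5, 81.2 and 66.3 CPM and 95.4, 150.2 and 179.8 CPM. In each of the 8, and in CDCA8, all siATF4 libraries lay above all siControl libraries, as in 15.3% of all genes tested, and in CDC20, AURKB and PLK1 replicate 3 was the highest of the siATF4 libraries.

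The siATF4 library of replicate 3 without glucose stood apart from the other 17 libraries of 16 h. It lay at 116 on the second principal component (16.9% of the variance), and the other 17 between -54.1 and 42.7. In that replicate, the log2 ratio of siATF4 to siControl fell with transcript length over the 41 genes (Spearman's rho -0.83, n = 41 genes of the same 2 libraries), against -0.23 in replicate 1 and 0.09 in replicate 2. Over the fitted differences rho was -0.65 for the 41 and -0.48 for 14326 protein-coding genes, and without that library it was -0.19 for the 41. The 16 genes with transcripts under 2000 bases had a median difference of 0.45 and the 8 above 4000 bases one of 0.09, which became 0.37 and 0.32 without it. With glucose, rho between that log2 ratio and length was 0.13, -0.75 and -0.06 in replicates 1, 2 and 3. For the ratio of siATF6 to the same siControl libraries, rho was 0.17, -0.10 and -0.56 without glucose. It was -0.59, -0.11 and -0.09 with glucose. Which library of a pair holds a slope was not tested. The part of transcript length in the siATF4 difference was not tested. The median over the 41 was 0.37 without replicate 3.

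FOXM1 (0.63, adjusted p = 0.0122), CDC20 (1.02, adjusted p = 0.0192), AURKB (0.88, adjusted p = 0.00876) and BIRC5 (0.61, adjusted p = 0.0432) passed in edgeR without that library as well, where 2.59% of all genes were called higher. PLK1 was then at 0.97 (adjusted p = 0.0951) and UBE2C at 0.63, and neither passed. CDK1 at 0.43 (adjusted p = 0.114) and MAD2L1 at 0.45 (adjusted p = 0.102) did not pass either. Leaving out siControl, 0 mM, replicate 1 left the same 4 genes, and leaving out its replicate 3 left FOXM1, CDC20 and AURKB. With all 36 libraries in 1 fit, edgeR called 0 of the 41. Shares of all genes called were not computed for leaving out a siControl library or for all 36 libraries. Of the 41 genes, 41, 39 and 29 were higher with siATF4 than with siControl in replicates 1, 2 and 3. With siATF6 over the same siControl libraries, 40, 28 and 40 were higher. The replicate numbers do not pair the siATF4 and siControl libraries here, and shares over all genes were not computed for these counts.

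**Figure D3:**
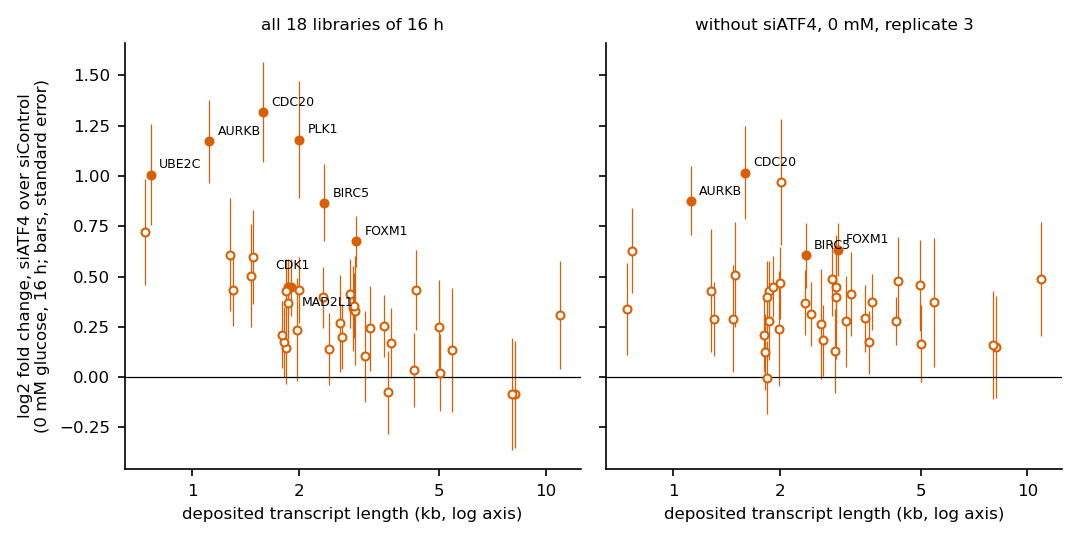
Log2 fold change of siATF4 over siControl in 0 mM glucose at 16 h (vertical axis; bars, standard error) against the deposited transcript length (log axis) for the 41 genes, with all 18 libraries (left) and without siATF4, 0 mM, replicate 3 (right). Filled, named points have an edgeR adjusted p under 0.05; the downward slope on the left (rho -0.65) is flatter on the right (rho -0.19).

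With siATF6, 1 of the 41 genes was higher than with siControl without glucose, where edgeR called 1.11% of all genes higher and 2.91% lower (4.02% together). It was KIF2C (0.63, adjusted p = 0.0404), at 29.1, 43.3 and 35.6 CPM in siControl and 41.3, 62.9 and 64.1 CPM with siATF6. The median over the 41 was 0.21 and that over all genes -0.01. In no gene of the 41 did the siControl and siATF6 libraries lie apart, so the KIF2C groups overlap too, whereas they lay apart in 15.3% of all genes towards higher and 13.6% towards lower levels. With the replicate number as a block, which pairs these libraries, edgeR called 3, namely KIF2C (adjusted p = 0.00292), CDC20 (0.71, adjusted p = 0.0237) and PLK1 (0.62, adjusted p = 0.0388). The share of all genes called with the block was not computed. KIF2C did not pass without siControl replicate 1 or 3, or without siATF6 replicate 2 or 3, of the libraries without glucose. Both knockdowns were compared with the same siControl libraries.

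The difference in the deprivation response between siRNAs was tested itself, and edgeR called 0 of the 41 for siATF4 against siControl, siATF6 against siControl or siATF4 against siATF6. Over all genes it called 0.172% (0.0111% higher and 0.161% lower), 0% and 0.355%. At an unadjusted p under 0.05 there were 7, 1 and 4 of the 41, against 9.16%, 2.29% and 9.44% of all genes, and DESeq2 called AURKB for siATF4 against siControl and none in the others. The largest was that of AURKB, whose fall with siATF4 was smaller by 1.13 ± 0.29 (SE) on the log2 scale (adjusted p = 0.194 in edgeR). Without siATF4, 0 mM, replicate 3, it was smaller by 0.83 (adjusted p = 0.248 in edgeR). In that fit edgeR called 0 of the 41 for siATF4 against siControl or against siATF6, and 0.272% and 0.478% of all genes. DESeq2 was not run without that library. With all libraries of 16 h, the share of all genes called by DESeq2 was not computed. With all libraries of 16 h the median difference over the 41 was 0.37 for siATF4 and 0.17 for siATF6 against siControl. None of the 41 was therefore shown to differ in its response between siRNAs in edgeR, although 39, 29 and 33 passed within the siRNA groups.

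At 6 h, edgeR called 0 of the 41 genes between 0 and 25 mM glucose with any siRNA, and 0% of all 18355 genes tested. DESeq2 called 0 as well, and 0, 6 and 0 of the 41 had an unadjusted p under 0.05 in edgeR in siControl, siATF4 and siATF6 cells, against 0.986%, 3.79% and 0.806% of all genes. The medians over the 41 were -0.12, -0.27 and -0.10, and the sums were 4160.3 ± 449 and 3839.9 ± 398 CPM in siControl, 4843 ± 269 and 4161 ± 14.5 (n = 2) with siATF4, and 4541 ± 404 and 4301 ± 558 with siATF6. The replicates disagreed in direction. Replicate 2 of siControl and of siATF6 ran against its glucose labels, as the values below show. Whether the labels of these 2 pairs were exchanged was not tested, and the medians, sums and calls as labelled depend on it. In siControl the median log2 ratio of 0 to 25 mM glucose was -0.38 in replicate 1, 0.25 in replicate 2 and -0.18 in replicate 3, and 38 of the 41 genes were higher without glucose in replicate 2. In siATF6 the medians were -0.29, 0.29 and -0.29, again with 38 of 41 higher in replicate 2, and in siATF4 replicates 1 and 2 they were -0.23 and -0.35. Genes outside the 41 moved with them. Over 1909 of these called at 16 h in siControl with a log2 change of at least 1 in size, the log2 ratio correlated with the 16 h change at -0.69 in siControl replicate 2 and -0.63 in siATF6 replicate 2, and at 0.55 to 0.68 in the other 6 pairs at 6 h (Pearson's r across genes of the same libraries).

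**Figure D4:**
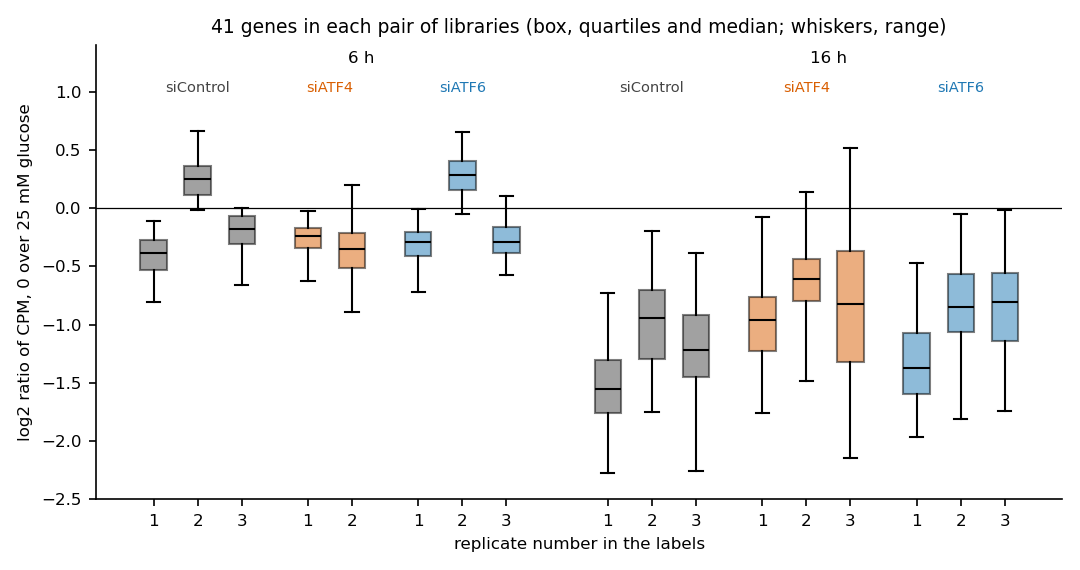
Log2 ratio of CPM between 0 and 25 mM glucose (vertical axis) over the 41 genes for each replicate number and siRNA at 6 and 16 h; boxes show quartiles and median and whiskers the range. At 6 h the boxes of replicate 2 in siControl and siATF6 lie above 0 (medians 0.25 and 0.29), and all other boxes lie below 0.

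AURKA, the kinase of centrosome maturation, shows this in single libraries. AURKA was at 120.3, 78.4 and 112 CPM in siControl replicates 1, 2 and 3 with glucose at 6 h and at 75.6, 114 and 83.1 CPM without. With siATF6 it was at 128, 84.8 and 123 and then 77.8, 132 and 85.4 CPM, and with siATF4 at 128, 127 and 118 and then, in replicates 1 and 2, 89.2 and 89.3 CPM. Replicate 2 was lower with glucose than without in siControl and siATF6, and the other pairs were higher with glucose. CCNA2 did the same, at 77.1, 51.0 and 76.7 and then 44.1, 73.8 and 52.2 CPM in siControl. Without these 2 pairs of replicate 2, edgeR called 5 genes lower in siControl, 2 with siATF4 and 1 with siATF6, where it called 0.757%, 0.199% and 0.265% of 18108 genes lower. The 5 were INCENP (-0.68, adjusted p = 0.0480), PLK1 (-0.67, adjusted p = 0.0291), CCNA2 (-0.66, adjusted p = 0.0155), KIF20A (-0.66, adjusted p = 0.0288) and AURKA (-0.53, adjusted p = 0.0261). With siATF4 they were CCNA2 (-0.53) and AURKA (-0.47), and with siATF6 AURKA (-0.60). The medians over the 41 were then -0.26, -0.26 and -0.27. Replicate 2 was set aside for the direction that these tests measure, and the p-values do not allow for that choice.

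With replicate 2 as labelled, edgeR called 0 of the 41 at 6 h for either knockdown in either medium. Without replicate 2 of siControl and siATF6, it called 0% and 0.0221% of all genes with siATF4, with and without glucose. With siATF6 these shares were 0.0331% and 0.199%. The shares that follow are again those as labelled. Over all genes edgeR called 0% with siATF4 in both media, and 0.496% with and 0.311% without glucose with siATF6. These divide into 0.0926% higher and 0.403% lower with glucose, and 0.0817% higher and 0.229% lower without. At an unadjusted p under 0.05 there were 8 and 5 of the 41 with siATF4, and 3 and 6 with siATF6, with and without glucose. The shares of all genes past it were 4.11% and 5.27% with siATF4, and 12% and 12.3% with siATF6. DESeq2 called 2, FOXM1 and PLK1, for siATF6 without glucose and 0 in the other 3. The share of all genes called by DESeq2 was not computed. With the replicate number as a block, which pairs the siATF6 and siControl libraries, edgeR called FOXM1 (0.34, adjusted p = 0.0454) for siATF6 without glucose. Replicate 2 of both ran against its glucose labels, and its part in this pairing was not tested.

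**Figure D5:**
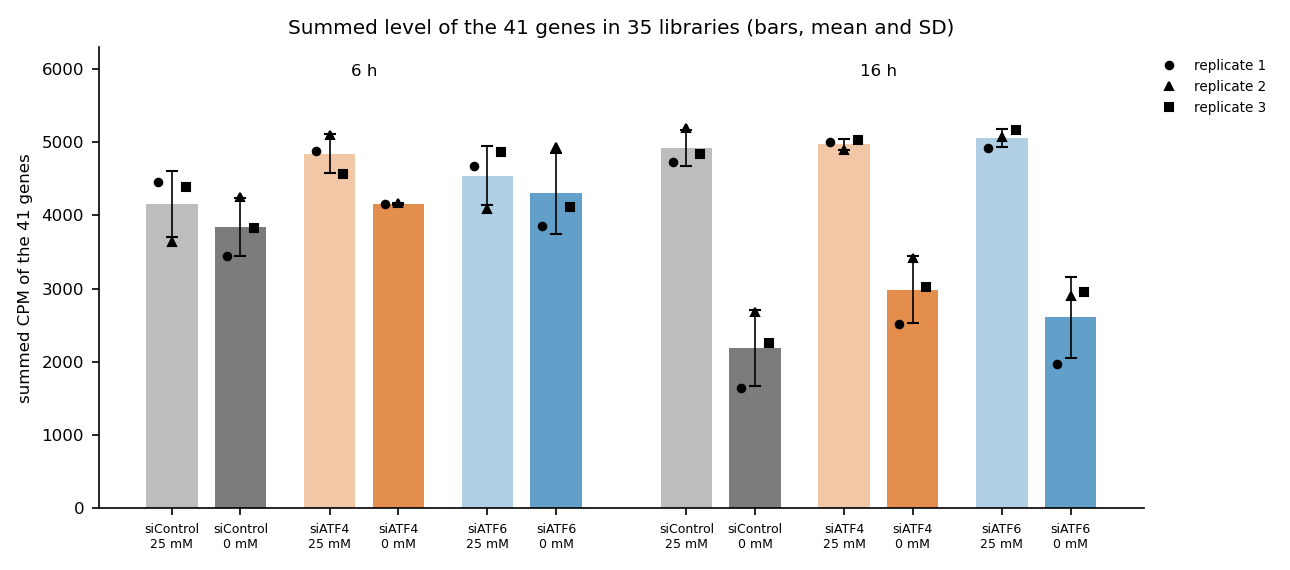
Summed CPM of the 41 genes (vertical axis, from 0) in each of 35 libraries, by siRNA, glucose and time, with bars for the group mean, error bars for the SD and point shapes for the replicate number. At 16 h all libraries without glucose lie between 1638 and 3421 and all with glucose at 4735 or above.

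Levels at 16 h were then set against those at 6 h. Between 6 and 16 h in 25 mM glucose edgeR and DESeq2 called 0 of the 41 with any siRNA, while edgeR called 0.273%, 0.0578% and 2.07% of all genes in siControl, siATF4 and siATF6 cells, and 6, 0 and 5 of the 41 had an unadjusted p under 0.05 in edgeR, against 9.06%, 7.02% and 14.7% of all genes. Without glucose, 30 were lower at 16 than at 6 h in siControl, 18 with siATF4 and 30 with siATF6, and none was higher, where edgeR called 7.21%, 7.3% and 9.5% of all genes lower. SPC25 fell most in each, by -1.68 (adjusted p = 1.91e-07), -1.11 (adjusted p = 0.000279) and -1.67 (adjusted p = 1.59e-07) in edgeR. Next came BIRC5 (-1.34) and MKI67 (-1.32) in siControl, KIF11 (-1.01) and MKI67 (-0.99) with siATF4, and MKI67 (-1.16) and BIRC5 (-1.14) with siATF6. SPC25 was at 10.7, 12.6 and 11.7 CPM in siControl replicates 1, 2 and 3 without glucose at 6 h and at 3.49, 4.72 and 2.70 CPM at 16 h, with no overlap.

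Without 6 h replicate 2 of siControl and siATF6 the counts were 24, 20 and 23, with 5.32%, 8.85% and 7.4% of all genes called lower. The counts were 6 and 8 with siATF4 when replicate 1 or replicate 2 at 6 h without glucose was left out, which leaves 1 library in that group, and 17 with siATF6 without replicate 1 at 16 h. With all 36 libraries in 1 fit edgeR called 1 in each. Shares of all genes called were not computed for leaving out 1 library or for all 36 libraries here. In siControl the deprivation response itself was larger at 16 than at 6 h in 30 of the 41 genes, all towards lower levels, where edgeR called 4.53% of all genes in that direction. SPC25 (-1.97, adjusted p = 7.12e-06), MKI67 (-1.72, adjusted p = 0.00112) and BIRC5 (-1.58, adjusted p = 8.98e-05) had the largest differences. Without 6 h replicate 2 there were 17 genes, all among the 30, with 2.45% of all genes called lower, and with all 36 libraries 1.

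Over the 18 libraries of 16 h the median Pearson correlation of their log2 CPM was 0.90 over 820 pairs of genes, which share libraries, depth and the glucose contrast. Over the 9 libraries with glucose alone it was 0.15. CENPA (0.58), UBE2C (0.66) and CDC20 (0.72) had the lowest median correlation with the other 40, and CCNA2 (0.96) the highest. The size of the fall also differed between cultures of 1 number. In siControl the median log2 ratio of the 41 at 16 h was -1.56, -0.95 and -1.22 in replicates 1, 2 and 3. With siATF4 it was -0.96, -0.61 and -0.83, and with siATF6 -1.37, -0.85 and -0.81, so replicate 1 had the largest fall in each.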

How the data were processed

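Poly(A) RNA of 36 A549 cultures was sequenced without strand information. The authors deposited expected counts per gene, estimated by RSEM from STAR alignments of fastp-trimmed reads to GRCh38, per the submitters' processing notes. The versions and the annotation release are not given in the sources used here. The deposited table also gives another value, a transcript length and effective length in bases per gene. Expected counts were rounded to whole numbers. Genes were filtered with filterByExpr (minimum count 10, minimum total 15), scaled by TMM and tested with edgeR 4.0.16's robust quasi-likelihood fit, with Benjamini-Hochberg adjustment over all genes tested and a threshold of 0.05. The 16 h libraries (18 libraries, 18013 genes) and the 6 h libraries (17 libraries, 18355 genes) were fitted apart, and the comparisons of times in 35 libraries (19030 genes). CPM were scaled by TMM over 35 libraries. DESeq2 1.42.0, size factors, no filter, a replicate block, all 36 libraries, and leaving out each library were alternatives. The fits were tested on simulated counts first. Exon overlaps came from GENCODE 29, and promoter windows from RefSeq.

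Depth ran from 39.4 to 78.7 M counts in the 35 libraries, so counting error is small beside the spread of cultures. The 41 genes and the other lists were chosen with earlier results of these data known. Values in every 16 h library are given for the genes with the lowest and highest siControl change of each role, and for CCNB1, CDK1, FOXM1 and MKI67. In other comparisons all called genes are named where there are up to 6, otherwise the 3 with the largest change (all 8 in 1 case), and genes named beyond this were chosen after their values were seen. Replicate numbers were taken to pair 2 groups where both had 3 libraries and all same-numbered libraries deviated together (every correlation above 0.1). This held for 7 of 20 pairs of groups: siControl with and without glucose at 16 h, siATF6 and siControl in both media at both times, and siATF4 and siControl with glucose at both times. The group of siATF4 without glucose at 6 h, with 2 libraries, could not meet this rule. Its correlations were 0.299 and 0.307 with siATF4 with glucose, and 0.357 and 0.433 with siControl without glucose, at 6 h. The values of 1 regulator that passed are not reported here.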

Additional observations from a re-analysis of the deposited data

Results flagged for a closer look

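The deprivation response in siControl cells differed between 6 and 16 h by a test of the difference itself. The change without glucose lay lower at 16 h in 30 of the 41 genes in edgeR, led by SPC25 (-1.97 on the log2 scale), MKI67 (-1.72) and BIRC5 (-1.58). Without the 6 h libraries of replicate 2 there were 17 genes, and these 3 were at -1.77, -1.42 and -1.40.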

How the results depend on the processing

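Every result kept its direction in the counts of called genes under median-of-ratios size factors, no filter on low counts and DESeq2, and the counts stayed within 1.5 times, except in 3 results under DESeq2. DESeq2 called 2 genes for siATF6 against siControl without glucose at 16 h, 2 for the same at 6 h, and 1 for the siATF4 minus siControl difference in response at 16 h, where edgeR called 1, 0 and 0. With all 36 libraries in 1 fit edgeR called 4, 1 and 3 genes for deprivation at 16 h in siControl, siATF4 and siATF6, 0 for each knockdown without glucose at 16 h, 1, 1 and 1 for 16 against 6 h without glucose, and 1 for the change of the response with time, and with siATF4 CDK1 (0.000506) and KIF4A (0.0135) then changed sign between 6 and 16 h. Without 6 h replicate 2 of siControl and siATF6 it called 5, 2 and 1 genes for deprivation at 6 h, and 17 for the change of the response with time.

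With the replicate number as a block, edgeR called 15 genes for siATF4 against siControl without glucose at 16 h, where the numbers do not pair the libraries, 3 for siATF6 against siControl without glucose at 16 h and 1 for the same at 6 h. The block moved no other count by over 1.5 times, and deprivation at 16 h gave 41, 36 and 38 in siControl, siATF4 and siATF6. The numbers pair the 16 h libraries with and without glucose in siControl only, not in siATF4 or siATF6. Shares of all genes called were not computed for the fits with other size factors, no filter, DESeq2, a block or all 36 libraries. The same holds for the fits that leave out 1 library, other than siATF4, 0 mM, replicate 3 at 16 h. Whether calls over all genes moved alike in them is therefore not known. Leaving out 1 library in turn gave 34 to 40, 24 to 30 and 31 to 34 genes for deprivation at 16 h, 3 to 11 for siATF4 and 0 to 2 for siATF6 against siControl without glucose at 16 h, and 22 to 37, 6 to 23 and 17 to 30 for 16 against 6 h without glucose. The change of the response with time gave 20 to 34, and all other comparisons gave 0. Where a group was left with 1 library, that library is assumed to vary like the other groups.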
